A study of Arabidopsis thaliana with 59 samples.

Results

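Rosette leaves of the Arabidopsis thaliana accession CIBC-17 were compared between soil that had been let dry and soil kept wet, with 3 arrays of each, so 6 of the 59 arrays of a study of 10 natural accessions. The 6 arrays were taken by their titles, which name the tissue, the accession, the watering level and a replicate number from 1 to 3. The series describes the 3 as biological replicates. How many plants went into an array is not given in the sources used here. Dry pots lost water in daily steps from 90% of the water they could hold to about 50% on day 5, so that plants could adjust while growing. Wet pots were weighed and watered in the same way but held near 90%. All plants of both groups were unmutated, stood 1 to a pot in about 150 ml of porous ceramic medium, and shared days of 10 h of light (330 µmol m-2 s-1), a temperature of 23 C in light and 18 C in darkness, and a humidity of 60%. The other 53 arrays (27 wet, 26 dry) come from Bur-0, Col, HR-5, KNOX-18, Ler, NFA-10, SQ-8, Ts-1 and Ws-2 under the same regime and serve here as the background response.

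When soil dries, plants build up abscisic acid (ABA). The hormone binds receptors of the PYR and PYL families, these block protein phosphatases that otherwise hold SnRK kinases inactive, and the kinases then switch on genes for dehydrins, late embryogenesis abundant proteins and lipid transfer proteins. Leaves under mild drying are also known to slow cell expansion, to store proline and sugars, and to shift nitrogen use before any wilting is seen.

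Each value is a log2 expression level per locus, as deposited, so each unit of difference is a 2-fold change. The 20728 loci ranged from 3.066 to 14.06, and medians of the 6 CIBC-17 arrays lay between 5.518 and 5.576. The tissue label was checked against markers. On the 6 arrays the 25 genes of photosystems and light harvesting averaged 12.1 to 12.9. The 9 root markers averaged 4.56 to 4.74 there, and the 10 floral and seed markers 3.86 to 3.94. Over all 59 arrays 5 of the root and 8 of the floral and seed markers had means under 4.22, as had 5182 of the 20728 loci. Differences are dry minus wet with the standard error (SE) of a limma fit over all 59 arrays, in which the replicate number was a block. The SE is thus pooled over all groups and need not reflect the spread among CIBC-17 arrays. Adjusted p-values are limma's, after Benjamini-Hochberg over all 20728 loci, and the threshold was 0.05.

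Drying raised 11 loci and lowered 27 past the threshold in CIBC-17. The rises, of 0.67 to 2.90 on the log2 scale, included CYP81D11, UGT74E2 and GSTU1, genes of enzymes that modify small molecules, the senescence marker SAG12 and the histone gene HIS1-3. The falls, of 0.47 to 3.41 in size, included the glutamine synthetase gene GLN1;4, the nitrate transporter gene NRT2.5, the defence gene AZI1, 3 small auxin upregulated RNA genes and the receptor kinase genes CRK12 and CRK5. The 38 loci are 0.183% of those tested (0.0531% higher and 0.130% lower). At an unadjusted p under 0.05 there were 2178 loci. Without the replicate block 13 loci passed, and all 13 were among the 38. They were CYP81D11, UGT74E2, SAG12, GSTU1, LOL2 and GLR2.4, which rose, and UBC17, AT5G09440, HSFA7A, AT5G20400, AT1G13640, AHL20 and AT1G59780, which fell. The calls of all other loci named below rest on the block. With the block set within each accession 19 of the 38 passed, and 11 passed in all 3 fits, the 13 less LOL2 and AT1G13640. In bulk leaf RNA, fewer cells of a type and less RNA per cell cannot be told apart.

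All 38 loci had the same sign in the 3 differences between arrays of equal number, as had 33.6% of all loci. However, loci were called on the mean of these 3 differences, which favours such loci. In 34 of the 38 the dry and the wet arrays did not overlap, against 12.7% of all loci. The size exceeded 1 on the log2 scale in 25, and its median over the 38 was 1.22. Single arrays weighed heavily on the count: it was 7 without dry array 3, 11 without wet array 2, 14 without wet array 1, 21 without dry array 2, 23 without wet array 3 and 56 without dry array 1. Of the 11 rises and the 12 largest falls together with AT1G59780, between 5 and 14 of 24 kept their call when 1 array was left out.

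CYP81D11 (AT3G28740), a cytochrome P450 gene known to respond to foreign compounds and to cis-jasmone, stood at 4.07, 4.18 and 4.17 in wet arrays 1 to 3 and at 7.03, 6.97 and 6.75 in the dry ones. Both groups were tight and far apart. The difference was 2.78 ± 0.32, a 6.86-fold change (limma adjusted p = 2.44e-06). It was the only one of the 38 that passed in every one of the 16 alternative fits over the whole series, with 0.0012 as the highest adjusted p, and the only one to pass when the 6 arrays were fitted alone without a block.

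UGT74E2 (AT1G05680) encodes a glucosyltransferase that acts on the auxin precursor indole-3-butyric acid. Its wet values were 4.16, 4.46 and 4.53 and its dry values 6.62, 5.23 and 5.77, a rise of 1.49 ± 0.25 (adjusted p = 0.00259), with dry array 1 the highest. The highest of the 53 arrays of other accessions, Bur-0 dry 2, read 5.74, which is above dry array 2 of CIBC-17. Differences in the other accessions ranged from 0.00879 in Col to 1.37 in NFA-10, so NFA-10 was close to CIBC-17. The difference of CIBC-17 from the mean of the others did not pass for UGT74E2 (limma adjusted p = 0.732). GSTU1 (AT2G29490), a tau class glutathione transferase gene, went from 3.87, 3.55 and 3.62 to 5.07, 4.68 and 4.08, with no overlap between the groups, a rise of 0.93 ± 0.18 (adjusted p = 0.0112). For UGT74E2 the SD was 0.70 in dry and 0.20 in wet arrays, and for GSTU1 0.50 and 0.17. The pooled SEs do not reflect this uneven spread. The wet means of CYP81D11, UGT74E2 and GSTU1 lay near the bottom of the scale, where a level cannot be told from background. Their fold changes may thus be understated.

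SAG12 (AT5G45890) encodes a cysteine protease that is the usual marker of leaf senescence. It read 3.61, 3.67 and 3.85 in the wet arrays and 8.31, 3.73 and 6.25 in the dry ones. Dry arrays 1 and 3 were thus far above the wet level and dry array 2 was at it, so the groups overlapped. The fitted rise was 2.38 ± 0.42 (adjusted p = 0.00529). This SE pools the spread within groups over all 59 arrays, and SAG12 varied little in the 53 of other accessions. The SE and p thus do not reflect the spread in CIBC-17, where the dry arrays had an SD of 2.29. With the 6 CIBC-17 arrays fitted alone without a block, the rise had an SE of 1.09 (limma adjusted p = 0.73). Without both arrays of number 1 the rise was 1.23 in the fit over the series, with an adjusted p of 0.0718. In the 53 arrays of other accessions SAG12 read between 3.54 and 4.02. DIN2 (AT3G60140), a dark-inducible beta-glucosidase gene of the same senescence list, ordered the dry arrays alike, at 5.29, 3.73 and 4.52 against 3.61, 3.52 and 3.65 in wet ones, but did not pass (0.92 ± 0.29, adjusted p = 0.197). SAG12 was the 1 of 15 measured senescence genes to pass, where 0.183% of all loci did. Of these 15 genes 7 had a positive and 8 a negative difference. The list median was -0.03, with 0.90 in pair 1, -0.57 in pair 2 and -0.12 in pair 3.

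HIS1-3 (AT2G18050), a drought-inducible linker histone gene, rose from 7.09, 7.03 and 7.68 to 9.48, 8.77 and 9.99. Each dry value was above every wet one, and the difference was 2.15 ± 0.46 (adjusted p = 0.0316; 0.153 without the block). The unnamed loci AT3G53980 and AT1G73480 had larger rises, by 2.90 ± 0.61 (adjusted p = 0.0274; 0.0959 without the block) and by 2.68 ± 0.59 (adjusted p = 0.0379; 0.364 without the block). AT3G53980 read 8.37, 7.37 and 7.44 wet and 10.53, 10.39 and 10.96 dry. The remaining rises were smaller than 1: AT1G61610 by 0.89, DEAR3 (AT2G23340), a gene for a DREB-type factor with an EAR repressor motif, by 0.78, LOL2 (AT4G21610), a zinc finger gene of the LSD1 family, by 0.69, and the glutamate receptor-like channel gene GLR2.4 by 0.67.

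**Figure D1:**
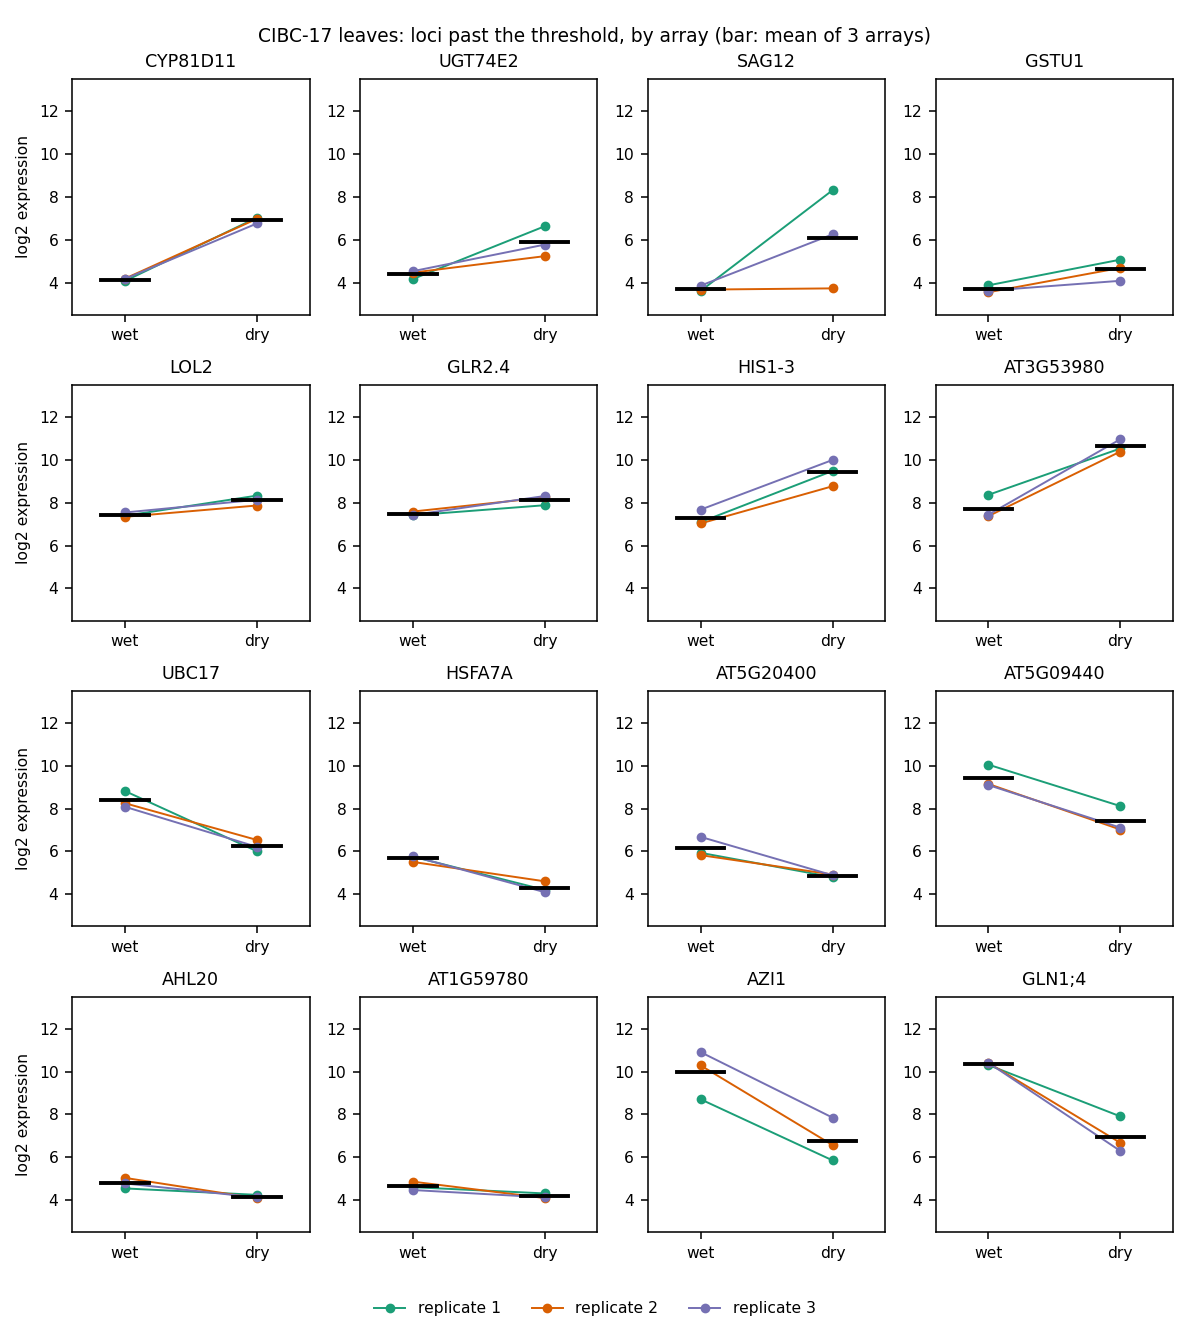
Log2 expression of 16 of the 38 loci that passed the threshold, in CIBC-17 wet and dry arrays. Each point is 1 array, lines join arrays of the same replicate number and black bars are means of 3 arrays; CYP81D11 shows tight groups, and SAG12 shows dry array 2 at the wet level of 3.73.

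The largest fall was that of GLN1;4 (AT5G16570), which encodes a cytosolic glutamine synthetase that assimilates ammonium. Wet arrays read 10.30, 10.40 and 10.41 and dry arrays 7.91, 6.67 and 6.30. The wet arrays agreed closely while the dry ones spread over more than 1 log2 unit, all below the wet ones. The fall was -3.41 ± 0.76, a 10.6-fold change (adjusted p = 0.0418; 0.173 without the block). NRT2.5 (AT1G12940), a high-affinity nitrate transporter gene best known from nitrogen-starved plants, went from 7.18, 7.37 and 8.0 to 6.09, 5.35 and 5.68, and fell by 1.81 ± 0.39 (adjusted p = 0.0367). ALN (AT4G04955), for the allantoinase of purine breakdown, went from 9.36, 9.72 and 9.30 to 8.25, 7.99 and 7.24, and fell by 1.63 ± 0.37 (adjusted p = 0.0491).

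A list of 22 genes of nitrogen and amino acid metabolism holds GLN1;4 but not NRT2.5 or ALN. No other member passed the threshold, where 0.183% of all loci did. The nitrate transceptor gene NRT1.1 had a difference of -1.19 ± 0.43 (adjusted p = 0.291) and the glutamine synthetase gene GLN1;1 one of -0.97 ± 0.29 (adjusted p = 0.175). GLT1, for glutamate synthase, had a positive difference, 1.46 ± 0.41 (adjusted p = 0.133). In this list 5 genes had all dry arrays above the wet ones and 5 had them all below, against 7.31% and 5.42% of all loci. The list median was 0.22, beside 0.02 for all loci.

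AZI1 (AT4G12470), which encodes a lipid transfer-like protein of systemic immunity, read 8.71, 10.29 and 10.91 wet and 5.86, 6.57 and 7.85 dry. Number 1 was lowest and number 3 highest in both groups, and the 3 differences were alike, at -2.85, -3.71 and -3.06. The fall was -3.21 ± 0.51, a 9.23-fold change (adjusted p = 0.00177). Without the block, so with the common order counted as spread, the adjusted p was 0.22. AZI1 was the 1 of 11 measured genes of lipid transfer proteins and AZI1 relatives to pass, where 0.183% of all loci did. Its relative EARLI1 had a difference of -1.04 ± 0.52 (adjusted p = 0.484), and the list median was -0.04.

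UBC17 (AT4G36410), a gene for a ubiquitin-conjugating enzyme, fell from 8.82, 8.25 and 8.08 to 6.01, 6.54 and 6.21, by 2.13 ± 0.39 (adjusted p = 0.00863). HSFA7A (AT3G51910), a heat shock factor gene, fell from 5.76, 5.51 and 5.78 to 4.21, 4.61 and 4.1, by 1.38 ± 0.23 (adjusted p = 0.00259). Both passed without the block as well, and neither had overlapping groups. AT5G09440, listed in the reference as EXL4 of the EXORDIUM-like family, fell by 2.02 ± 0.42, from a wet mean of 9.43 to a dry mean of 7.41 (adjusted p = 0.0274). AT5G20400, which has no name in the reference, fell by 1.28 ± 0.24 (adjusted p = 0.00928), and AT2G44670, also unnamed, by 1.48 ± 0.33 (adjusted p = 0.0379).

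The receptor-like kinase gene CRK12 (AT4G23200) read 8.61, 6.98 and 6.39 wet and 5.40, 5.26 and 5.26 dry. The dry arrays were even, whereas the wet ones differed by over 2 log2 units, so the size of the fall, -2.02 ± 0.41, depended on the pair (adjusted p = 0.0178; 0.157 without the block and 0.0962 with it within each accession). The small auxin upregulated RNA genes AT1G56150 (SAUR71 in the reference) and AT1G72430 (SAUR78) fell by 1.29 ± 0.24 (adjusted p = 0.00863; 0.205 without the block) and 1.26 ± 0.29 (adjusted p = 0.0472; 0.0959 without the block). AT1G56150 went from 9.43, 9.44 and 8.92 to 8.26, 8.33 and 7.35, with no overlap.

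The other 15 falls were between 0.47 and 1.23 in size. A few of them are named here after their values were seen. SAG20 (AT3G10985), a wound- and senescence-induced gene, was the most even, at 10.19, 10.38 and 10.36 wet against 9.26, 9.21 and 9.23 dry, a difference of -1.08 ± 0.20 (adjusted p = 0.00928). Another SAUR gene, AT3G12830 (SAUR72), had a difference of -1.21, LOG8, for an enzyme that releases active cytokinin, one of -1.09, CRK5 one of -1.02, and BSK1, for a kinase of brassinosteroid signalling, one of -0.61. LOG8, APRL6 and delta-ADR were, with SAG12, the 4 of the 38 whose dry and wet arrays overlapped.

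The response of CIBC-17 was then set against the mean response of the 9 other accessions. The CIBC-17 group means do not enter that mean, but the spread estimate and the replicate block are shared in the fit. In those accessions 6869 loci passed the threshold (33.1%; 3576 higher and 3293 lower), a mean of 9 differences having a much smaller SE. Of these 6869 loci 5854, or 85.2%, had the same sign in CIBC-17, the differences correlated across loci with r = 0.85, and the median ratio of the CIBC-17 difference to that of the others was 0.74. Over all 20728 loci the same sign was seen in 65.8%, with r = 0.75 and a median ratio of 0.66. In single pairs the share among the 6869 was 71.9%, 80.1% and 69.1%. The loci share arrays and are not independent, so this is a description. Of the 215 loci that moved by more than 1 in the others, 214 had the same sign in CIBC-17, with a median ratio of 0.86 and r = 0.93. The exception, AT2G14900, had a difference of -1.07 in the others and 0.16 ± 0.57 in CIBC-17.

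Of the 38 loci called in CIBC-17, 34 were also called over the 9 others, all with the same sign. Of these 34 loci 30 were larger in size in CIBC-17. These loci were selected for their CIBC-17 value, which favours larger values there. GLN1;4 had a difference of -3.41 in CIBC-17 and -1.99 in the others, and AZI1 one of -3.21 and -2.43. HIS1-3 was the reverse, at 2.15 and 2.76. The 4 loci not called in the others were SAG12, GLR2.4, AT1G59780 and AT1G61610.

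**Figure D2:**
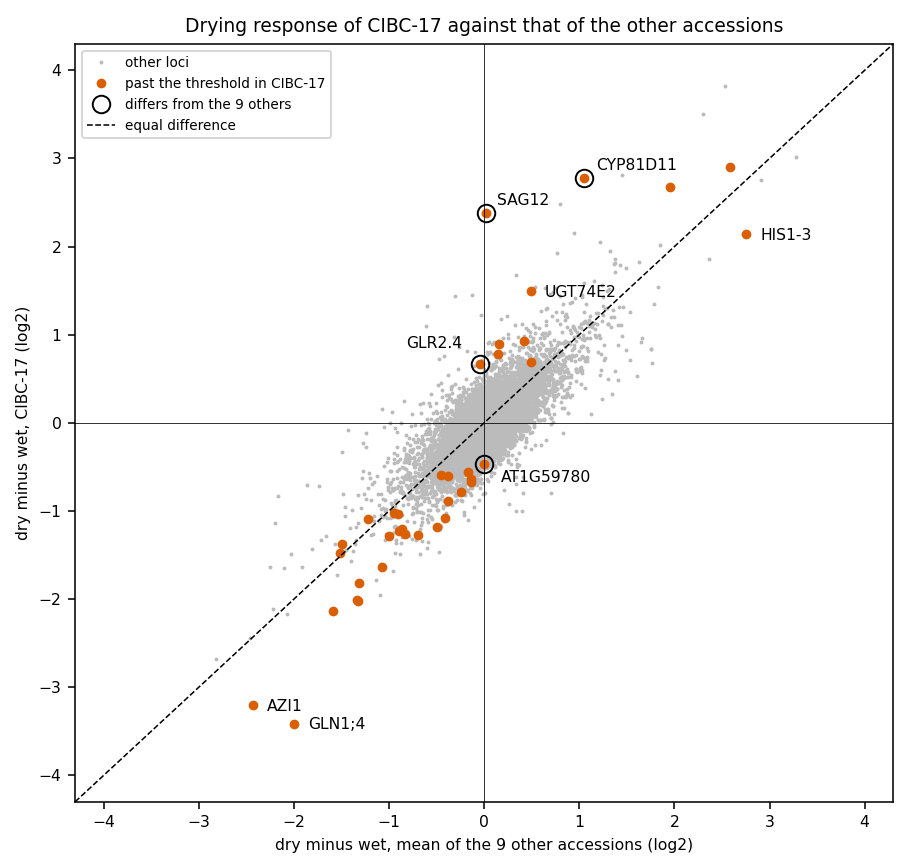
Dry minus wet in CIBC-17 (vertical, log2) against the mean dry minus wet of the 9 other accessions (horizontal, log2), 1 point per locus for 20728 loci. The 38 loci past the threshold in CIBC-17 are filled orange, and the 4 with a tested difference from the others are ringed. The dashed line marks equal differences. Over all loci r was 0.75 and the median ratio 0.66, with the same sign in 65.8%. SAG12, GLR2.4 and AT1G59780 lie near 0 on the horizontal axis.

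A test of the difference itself, CIBC-17 against the mean of the others, passed for 4 loci (0.0193%), with 1002 loci at an unadjusted p under 0.05. SAG12 differed by 2.37 ± 0.44 (adjusted p = 0.0434), again with an SE pooled over all 59 arrays that does not reflect its uneven dry CIBC-17 arrays. CYP81D11 differed by 1.73 ± 0.34 (adjusted p = 0.0465): its mean difference in the others was 1.05, from 0.08 in Ts-1 to 2.84 in HR-5, so HR-5 was at the level of CIBC-17. GLR2.4 (AT4G31710) differed by 0.72 ± 0.13 (adjusted p = 0.0434). It read 7.41, 7.59 and 7.43 in wet CIBC-17 arrays and 7.88, 8.25 and 8.31 in dry ones, with no overlap, while in the others its difference lay between -0.39 in Ws-2 and 0.19 in Ts-1. AT1G59780, unnamed in the reference, differed by -0.46 ± 0.09 (adjusted p = 0.0465), from 4.61, 4.87 and 4.48 wet to 4.32, 4.1 and 4.13 dry. Its median over the 53 arrays of other accessions was 3.80 (3.55 to 4.96), near the bottom of the scale, where a fall could hardly be seen. The part of this lower level in the difference was not tested.

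All 4 calls were close to the threshold. None passed without Col wet 3, an array whose seed stock label is that of Ws-2 (all 4 at an adjusted p of 0.0557). The count was also 0 without CIBC-17 dry array 3, wet array 1, wet array 2 or wet array 3. The next loci by p, AT4G28430 and AT4G31070, had differences from the others of 0.23 and 0.19 and did not pass (adjusted p = 0.596 and 0.732).

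By count, CIBC-17 was at the low end of the 10 accessions. In the same fit the others had between 85 called loci (KNOX-18, with 2 dry arrays) and 1803 (SQ-8), against 38 here. CIBC-17 also had the fewest loci with a difference over 1 in size, 242, where the others had 299 to 905. The median size over all loci, 0.119, was within the 0.116 to 0.151 of the other accessions. The median SD within its groups was 0.142 wet and 0.166 dry, in the range of the others for wet arrays (0.139 to 0.198) and above it for dry arrays (0.126 to 0.162). No test of the difference between these counts was made.

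**Figure D3:**
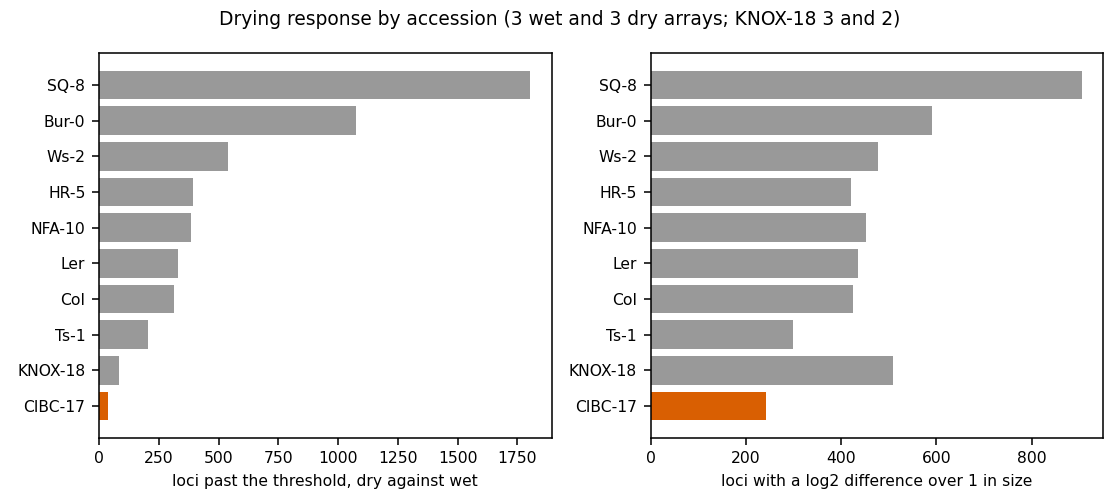
Number of loci past the threshold for dry against wet (left) and with a log2 difference over 1 in size (right) in each of the 10 accessions, with CIBC-17 in orange. CIBC-17 has 38 and 242 loci, the fewest in both panels.

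The dehydration and ABA induced list, 34 genes measured, had HIS1-3 as its 1 member past the threshold, where 0.183% of all loci passed. Over the other accessions 22 of the 34 were called higher and 3 lower, where 17.3% and 15.9% of all loci were. In CIBC-17 23 of the 34 had a positive difference. The list median was 0.13, with 0.17, 0.13 and 0.20 in the 3 pairs, beside 0.30 in the others and 0.02 over all loci in CIBC-17. Several members had large differences with large errors. LTP4 (AT5G59310), for a lipid transfer protein, read 7.88, 5.12 and 4.88 wet and 11.19, 7.98 and 7.76 dry. Every pair differed by about 3 in the same direction, but wet array 1 lay at the level of dry arrays 2 and 3. The difference was 3.02 ± 0.90 (adjusted p = 0.161). LTP3 (AT5G59320) had the same order of arrays, at 9.75, 5.11 and 3.94 wet and 11.25, 8.45 and 7.36 dry (2.75 ± 1.08, adjusted p = 0.347).

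COR15B (AT2G42530), for a chloroplast stress protein, read 5.10, 5.56 and 7.30 wet and 6.72, 8.0 and 9.29 dry (2.02 ± 0.52, adjusted p = 0.101). COR15A, its close relative, had 0.53 ± 0.50 (adjusted p = 0.751). The other accessions averaged 1.61, from 0.70 in Ts-1 to 2.39 in Ler, and the difference of CIBC-17 from them did not pass. The dehydrin gene RAB18 (AT5G66400) read 3.84, 4.02 and 4.40 wet and 6.43, 5.07 and 5.37 dry, with no overlap (1.54 ± 0.43, adjusted p = 0.141). RD29A and RD29B, which are widely used markers of osmotic stress and ABA, had differences of -0.10 ± 0.75 and 0.11 ± 0.14. In the other accessions RD29A averaged 0.27 ± 0.25, so it was not among their called loci either.

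BGLU18 (AT1G52400), for a beta-glucosidase that can free ABA from its glucose ester, had the widest difference among the genes shown here, 3.82 ± 1.15 (adjusted p = 0.166). It read 7.31, 7.21 and 6.45 wet and 12.49, 9.26 and 10.67 dry. All dry arrays were above the wet ones but differed by more than 3 log2 units among themselves. NCED3, the gene of the rate-limiting enzyme of ABA synthesis, had 0.30 ± 0.40 (adjusted p = 0.836). None of the 14 measured genes of ABA synthesis, breakdown and transport passed, where 0.183% of all loci did.

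Of 22 genes for ABA receptors, phosphatases and kinases, none passed in CIBC-17, where 0.183% of all loci did, so a count of 0 is near the background. Over the other accessions 9 were called higher and 6 lower, against the same 17.3% and 15.9%. The receptor genes PYR1, PYL5 and PYL6 had differences of -1.11 ± 0.32, -1.06 ± 0.33 and -0.95 ± 0.34 (adjusted p = 0.149, 0.18 and 0.285), each with all dry arrays below the wet ones. The phosphatase gene PP2CA (AT3G11410) read 8.07, 8.20 and 8.15 wet and 8.51, 8.46 and 8.89 dry. The step was small but without overlap, 0.48 ± 0.24 (adjusted p = 0.495), and the other accessions averaged 1.41, from 0.95 in Bur-0 to 1.92 in Col. The difference from them, -0.93 ± 0.26, did not pass (adjusted p = 0.75). HAI1, for another such phosphatase, had 0.51 ± 0.30 against 0.65 in the others.

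A proline turnover gene and a growth-related gene had large differences that did not pass. ERD5 (AT3G30775), the gene of proline dehydrogenase, which breaks proline down, read 10.61, 9.10 and 9.56 wet and 7.44, 7.32 and 7.20 dry. The dry arrays were even and all lay below the wet ones, with a difference of -2.44 ± 0.57 (adjusted p = 0.0556) beside -2.46 in the others. GASA1 (AT1G75750), for a gibberellin-regulated peptide, read 11.14, 11.54 and 10.57 wet and 7.33, 8.96 and 8.93 dry (-2.68 ± 0.70, adjusted p = 0.105; -2.82 in the others). Among 30 expansin and xyloglucan endotransglucosylase genes, whose proteins loosen cell walls, none passed, where 0.183% of all loci did. EXPA10 had 0.97 ± 0.24 (adjusted p = 0.0797), XTH24 -1.44 ± 0.40 (adjusted p = 0.127) and XTH7 -2.16 ± 0.77 (adjusted p = 0.283). Over the other accessions 10 members were called higher and 10 lower, where 17.3% and 15.9% of all loci were. All 20 had the same sign in CIBC-17, as had 85.2% of all loci called in the others.

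**Figure D4:**
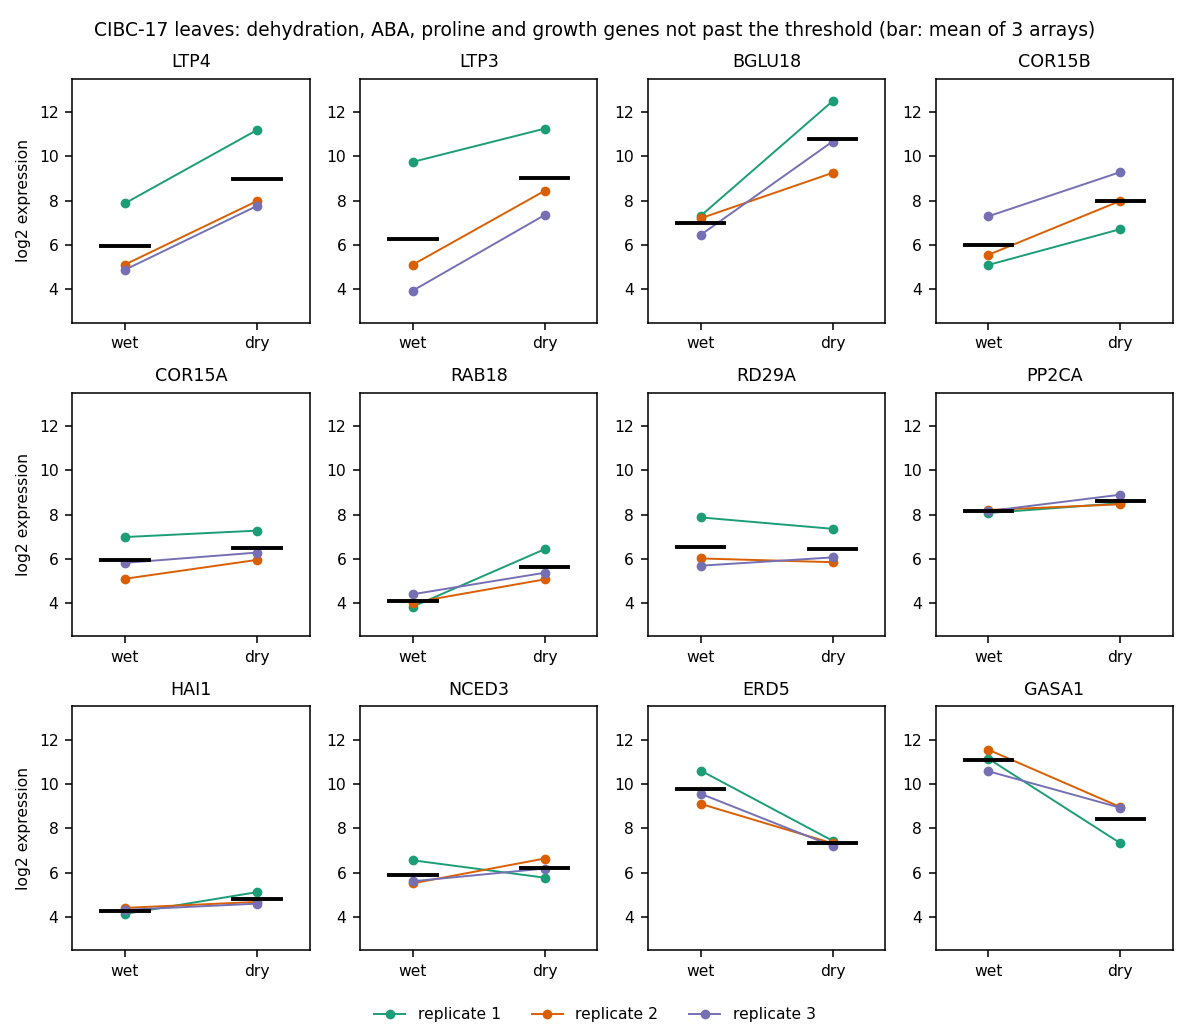
Log2 expression of 12 genes of dehydration, ABA, proline and growth in CIBC-17 wet and dry arrays, none past the threshold. Points are arrays, lines join equal replicate numbers and bars are means; BGLU18, ERD5 and GASA1 show no overlap between wet and dry, while LTP3 and LTP4 have wet array 1 far above the other wet arrays.

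Genes of photosynthesis had mostly positive differences, with no member past the threshold, where 0.183% of all loci were. Of 25 photosystem and light-harvesting genes 24 had a positive difference, with a median of 0.25, and of 15 Calvin cycle genes 14, with a median of 0.39; over all loci 11449 of 20728 were positive. The medians were not alike in the 3 pairs: 0.60, 0.22 and -0.03 for the photosystems and 0.37, 0.67 and -0.01 for the Calvin cycle, so pair 3 did not show them. LHCB3, for a light-harvesting protein, read 12.70, 13.09 and 13.09 wet and 13.33, 13.40 and 13.45 dry (0.43 ± 0.18, adjusted p = 0.395), and TKL1, for transketolase, had 0.58 ± 0.20 (adjusted p = 0.278). Over the other accessions 15 and 11 members were called, all higher, where 17.3% of all loci were.

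The jasmonate and wounding list had the highest list median, 0.58, with 18 of 23 members positive. None was called, where 0.183% of all loci were. The other accessions had a list median of 0.54, with 17 members called higher and 2 lower (17.3% and 15.9% of all loci). JAZ8, a repressor of jasmonate signalling, read 8.53, 5.84 and 5.52 wet and 9.76, 8.18 and 8.13 dry (2.06 ± 0.87, adjusted p = 0.393). LOX3, for a lipoxygenase of jasmonate synthesis, had 8.5, 6.18 and 5.77 wet and 8.45, 8.39 and 8.16 dry. Wet array 1 was the highest wet array for both, and for LOX3 it lay above all dry ones. Cytokinin genes had a median of 0.13, with 20 of 27 positive. The response regulator genes ARR5 and ARR7 had 1.11 ± 0.43 (adjusted p = 0.331) and 1.11 ± 0.45 (adjusted p = 0.369).

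The cold and CBF list had the second lowest median, -0.25, with pairs at -0.60, -0.08 and -0.22. All dry arrays were below the wet ones for 5 of its 15 members, against 5.42% of all loci. None passed, where 0.183% of all loci did. CBF2, for a transcription factor of cold acclimation, read 9.57, 9.57 and 9.97 wet and 8.12, 9.28 and 9.27 dry (-0.82 ± 0.23, adjusted p = 0.147). The defence markers PR1 and PDF1.2 varied widely among arrays of the same watering. PR1 read 5.66, 6.45 and 9.29 wet and 6.31, 6.33 and 10.62 dry, and PDF1.2 8.17, 8.41 and 7.68 wet and 9.88, 4.24 and 7.65 dry. The flowering repressor gene FLC had -0.35 ± 0.27.

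**Figure D5:**
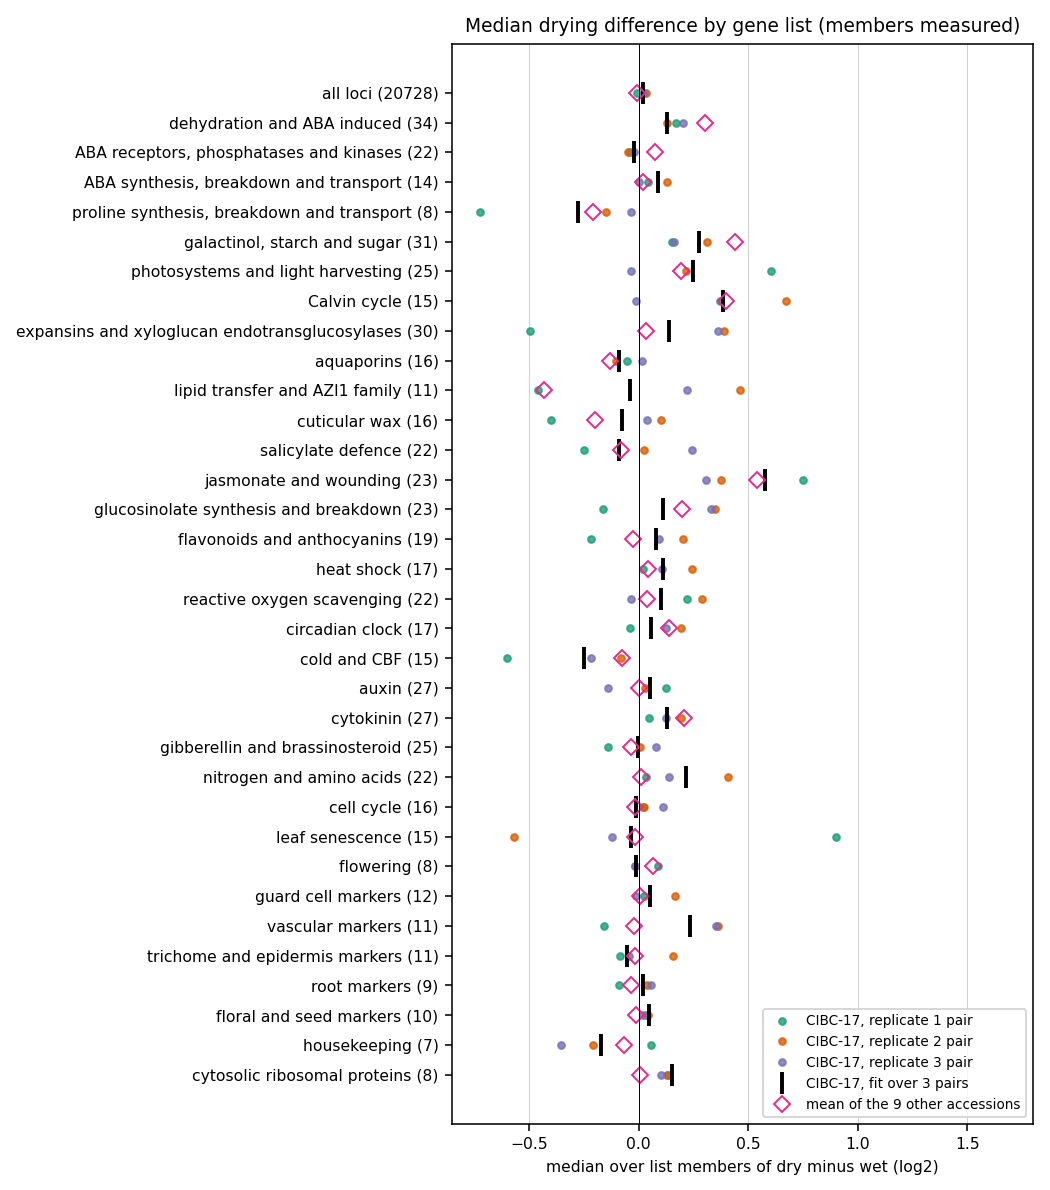
Median over list members of dry minus wet (log2), for 33 gene lists and all loci. Coloured points are the 3 CIBC-17 pairs, black ticks the CIBC-17 fit and open diamonds the mean of the 9 other accessions; the jasmonate list lies highest at 0.58, and leaf senescence ranges from -0.57 to 0.90 among pairs.

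Markers of other cell types and organs were few: 12 for guard cells, 11 vascular, 11 for trichomes and epidermis, 9 for roots and 10 floral and seed. None was called, where 0.183% of all loci were, so this is near the background. The level of guard cell markers, averaged over 12 genes, was 4.29 to 4.35 in wet and 4.31 to 4.48 in dry arrays, and root markers averaged 4.56 to 4.74 and 4.57 to 4.63. Vascular markers averaged 5.90 to 6.41 in wet and 5.96 to 6.66 in dry arrays. Of these 9 of 11 had a positive difference, with a median of 0.23 (-0.16, 0.36 and 0.35 in the 3 pairs) beside -0.02 in the others. The part of these cell types in the results above was not tested. Arrays of equal number resembled each other in clock genes: CCA1 read 9.52, 8.04 and 6.66 wet and 9.02, 7.68 and 5.82 dry, and LHY 11.24, 10.00 and 8.25 wet and 10.58, 8.97 and 6.92 dry. Both are morning genes of the circadian clock, and both were highest in the 2 arrays of number 1 and lowest in those of number 3. The 3 pairs were unequal as a whole: 882, 743 and 353 loci differed by more than 1 in pairs 1, 2 and 3, and the differences of pairs 2 and 3 correlated across loci (r = 0.55) more than those of pairs 1 and 2 (r = 0.12) or 1 and 3 (r = 0.16). The part of sampling time in this was not tested.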

How the data were processed

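The authors deposited 1 table of log2 values per locus and array. MAS5 and RMA appear, per the submitters' processing notes, with no version or order. Neither the array platform nor its genome build is given in the sources used here, so coordinates and sequences are left out. Values were used as deposited. A linear model with 20 group means and the replicate number as a block was fitted to 59 arrays by lmFit and eBayes (limma 3.58.1, R 4.3.3), leaving 37 residual and 2.26 prior degrees of freedom. The fit was run on simulated data with independent errors and no replicate effect, which cannot test the block. Pairing by number came with the choice of arrays; the labels only number the replicates.

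Loci were named through a reference table of TAIR10.1, which held 20546 of them. Of 646 members of 33 gene lists, 10 were left out for unmatched names and 588 were measured. No set test was made. Members, lists and comparisons were chosen with earlier results of these data known. Named loci were the 12 largest rises and falls past the threshold with 1 sign in 3 pairs, the 8 highest and lowest tested differences from the other accessions (the 6 smallest p if fewer than 6 passed), up to 4 smallest-p members per list, and 18 genes known from drought work; 14 loci with values equal to another locus were left out. Arrays carry no read depth, so their number limits the precision. Alternatives were no block, a block within each accession, the 6 arrays alone, centring, quantile normalization, dim loci left out, a variance trend, and arrays left out.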

Additional observations from a re-analysis of the deposited data

Results flagged for a closer look

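At 4 loci the dry minus wet difference in CIBC-17 differed from the mean of the 9 other accessions by limma's test of the difference itself, which does not compare CIBC-17 with any single accession. SAG12 differed by 2.37, with dry arrays 1 and 3 high and dry array 2 at the wet level. CYP81D11 differed by 1.73, with the 3 dry arrays close together, but HR-5 alone had a difference of 2.84 beside 2.78 in CIBC-17. GLR2.4 differed by 0.72 and AT1G59780 by -0.46, both small steps. The median of AT1G59780 in the other accessions, 3.80, was near the bottom of the scale. Over the alternatives the adjusted p of these differences ranged from 3.99e-13 to 0.524 for SAG12 (past the threshold in 5 of 15), from 0.0367 to 0.524 for CYP81D11 (1 of 16), from 0.0141 to 0.9996 for GLR2.4 (5 of 16) and from 0.0239 to 0.9998 for AT1G59780 (3 of 15).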

How the results depend on the processing

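The count of 38 loci depended on how replicates were treated. Without the replicate block 13 loci passed (6 higher, 7 lower; 1 list member; 2 differences from the other accessions). With a block within each accession 27 passed, and 1 difference. The 6 arrays fitted alone gave 1 locus without the block (1 higher, 0 lower, 0 list members) and 0 with it. As a check of the pairing, deviations from the group means of the dry and wet array of 1 number correlated with r = 0.40, 0.097 and 0.56. Each wet array correlated best with the dry array of its own number, but dry array 2 correlated best with wet array 3 (r = 0.17). Over all accessions 24 of 29 pairs were above 0.1. Arrays of equal number thus resembled each other for numbers 1 and 3, but pairing is not shown for number 2. Leaving out Col wet 3, centring, omitting the 5182 dimmest loci, a variance trend and quantile normalization gave 39 to 46 loci. The 4 differences became 0 without Col wet 3, 1 after centring and 0 without the dimmest loci, which removes SAG12 and AT1G59780 themselves. With CIBC-17 arrays left out, the count ranged from 6 to 56 loci (3 to 26 higher, 2 to 30 lower), list members from 1 to 4, differences from 0 to 4, and the share of the others' loci with the same sign from 78.5% to 85.8%. A lone array in a group was then assumed to vary like the other groups. Of the 24 named loci past the threshold none changed sign in any fit. Among those not past it, RD29A ranged from -0.85 to 0.86 (0.16, 0.39, 0.86 and 0.10 in the fits that turned its sign), NCED3 from -0.10 to 0.85, PDF1.2 from -2.10 to 0.84 (0.37 and 0.84) and PR1 from -0.70 to 1.56 (-0.70 and -0.10). The cause of these shifts was not tested. Values close to the lowest of the table may be background.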

Other observations

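Families of loci that passed were looked at after the calls were seen, so the counts describe and test nothing. Of 57 measured SAUR genes, for small proteins that act in auxin-driven growth, 3 fell past the threshold, where 0.130% of all loci did, and 32 had a positive difference, as had 11449 of 20728 loci. The family was looked at because these 3 had passed. The highest, AT4G38840, read 5.86, 6.77 and 6.58 wet and 8.42, 7.27 and 6.98 dry (1.15 ± 0.36, adjusted p = 0.183), so the family held large differences both ways. Of 32 cysteine-rich receptor-like kinase genes, 2 fell past the threshold, which is why they were counted, 21 were negative and 7 had all dry arrays below the wet ones, where 5.42% of all loci did. CRK30 read 6.19, 4.70 and 4.33 wet and 3.55, 3.93 and 3.72 dry (-1.34 ± 0.31, adjusted p = 0.0548). Whether the probes tell apart close copies in this family is not given in the sources used here.

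Among 26 tau class glutathione transferase genes GSTU1 was the 1 past the threshold, where 0.0531% of all loci rose, and 18 were positive. GSTU5 read 6.21, 5.39 and 4.92 wet and 8.15, 7.65 and 5.97 dry (1.75 ± 0.53, adjusted p = 0.175). CYP81D11 stood apart in value from the other 6 measured members of its CYP81D subfamily, whose differences lay between -0.31 and 0.36.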
